A study of Mus musculus with 8 samples.

Results

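Prostaglandin E2 is a lipid signal made from arachidonate, and 10 genes of its synthesis, reception and breakdown were followed here in depolarised mouse hippocampal neurons. Cyclooxygenases convert arachidonate to prostaglandin H2, prostaglandin E synthases turn that into prostaglandin E2, and 4 G protein-coupled receptors of the EP family sense it outside the cell. In the brain, cyclooxygenase-2 is made by excitatory neurons and its gene, Ptgs2, is a known activity-induced gene, while prostaglandin E2 shapes synaptic transmission, fever and inflammation. The genes were chosen by name: Ptgs1 and Ptgs2 (cyclooxygenases), Ptges, Ptges2 and Ptges3 (synthases), Ptger1 to Ptger4 (receptors) and Hpgd (breakdown). Of these 10, 8 had a probe set annotated to that gene alone, out of 22180 genes so named. Ptgs1 and Ptger1 had no named probe set and were not analysed here.

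Neurons from hippocampi of C57BL/6J embryos (E18.5) were grown for 11 days in vitro, all with AraC, which kills dividing cells, in their medium. In all, 4 arrays came from untreated cultures and 4 from cultures kept in 55 mM KCl for 4 h, which depolarises neurons. Each array had its own mouse number, and the labels do not say whether embryos were pooled. RNA was read on Affymetrix whole-transcript arrays, and values are log2 probe set values on which 1 unit is a doubling. The number of arrays limits the precision of all that follows.

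Levels of neuronal markers were high, with a mean over 10 markers of 9.82 to 10.46 in untreated and 9.82 to 10.44 in KCl arrays. Astrocyte markers were also present: their mean over 8 genes was 8.08 to 8.68 in untreated and 8.04 to 8.39 in KCl arrays, and Gfap, the astrocyte filament gene, stood at 10.78 and 10.76. In the same list S100b stood at only 4.53 and 4.79 and Gjb6 at 3.72 and 3.71. The 10 microglia markers (4.34 to 4.38 untreated, 4.21 to 4.51 KCl) and 8 endothelial markers (4.06 to 4.41 and 4.12 to 4.47) had means near the median probe set of an array, which was 4.44 to 4.48. Single genes stood higher, such as the endothelial receptor gene Kdr (6.71 and 6.76) and the microglia gene Cx3cr1 (5.38 and 5.30). Of all 58 measured markers of 7 cell types, 1 passed the test described below, against 1.34% of all genes rising and 1.02% falling. It was the astrocyte glutamate transporter Slc1a2, which fell with a log2 change of -0.78 (limma adjusted p = 0.0479). That call was lost with the replicate block (adjusted p = 0.062) and in 7 of 8 fits with 1 array left out (up to 0.139). With the block the GABA synthesis gene Gad2 fell instead (log2 change -0.49, adjusted p = 0.0458, and 0.0872 to 0.185 with any pair left out), while Gad1, of the same function, stood at 1.08 (0.0765). On the first principal component of the 22180 genes (36.6% of the variance), untreated replicate 1 (-48.6) and KCl replicate 1 (-43.2) stood apart from the other 6 arrays (-4.58 to 26.6), so results are also given without both. Which cells the RNA below came from was not tested, and in bulk RNA more cells of a type and more RNA per cell cannot be told apart.

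The start regions of Ptgs2 and Ptger4 are shown because these genes had KCl values wholly above the untreated ones, as had 3.83% of all genes. Each runs 5′ to 3′ on the gene's strand over the 250 bases before the RefSeq transcript start (build GRCm38.p6). The Ptgs2 stretch is chr1:150099781-150100030 on the plus strand and that of Ptger4 is chr15:5244188-5244437 on the minus strand. Capitals mark TTGCGCAA, the palindromic site of C/EBP factors.
Ptgs2: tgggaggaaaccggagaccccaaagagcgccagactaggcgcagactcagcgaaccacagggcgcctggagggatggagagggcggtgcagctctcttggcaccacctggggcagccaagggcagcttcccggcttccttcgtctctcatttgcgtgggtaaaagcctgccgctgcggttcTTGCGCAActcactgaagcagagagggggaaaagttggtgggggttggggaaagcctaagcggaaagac
Ptger4: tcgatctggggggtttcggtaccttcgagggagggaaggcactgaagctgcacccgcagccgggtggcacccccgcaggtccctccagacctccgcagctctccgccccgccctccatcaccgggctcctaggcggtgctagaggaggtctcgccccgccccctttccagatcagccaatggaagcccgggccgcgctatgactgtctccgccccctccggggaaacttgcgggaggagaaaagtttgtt

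Both strands of this window were searched in 32851 RefSeq promoters for 5 motifs. TTGCGCAA, a motif added after the Ptgs2 sequence was read, occurs from -69 to -62 before the Ptgs2 start and in 0.16% of all windows. Neither printed stretch holds CGTCA, the core of the cAMP response element found in 17.77% of windows, and so neither holds the full element TGACGTCA (1.55%), which contains that core. The AP-1 motif TGANTCA (6.75%) and the E-box CACGTG (6.02%) are also not in either stretch. Of the 9 genes with a promoter entry, Ptges2 alone holds an E-box, from -77 to -72. These matches describe letters in a short window and say nothing about factors bound there. Bases outside the window were not searched, so a site just after the RefSeq start would be missed.

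Ptgs2, which encodes the inducible cyclooxygenase, was the member that rose after 4 h of KCl. Its probe set (17218060) read 6.69, 5.64, 5.53 and 5.19 in untreated replicates 1 to 4 and 8.36, 7.42, 8.50 and 8.62 in KCl replicates 1 to 4. The groups did not overlap, as was so in the upward direction for 3.83% of all genes. Untreated replicate 1 was the highest of its group, KCl replicate 2 the lowest of its own, and these still lay apart. From group means of 5.76 ± 0.65 and 8.22 ± 0.548 (SD, n = 4 each), the log2 change was 2.46 (SE 0.363, 95% confidence interval 1.63 to 3.29), a 5.5-fold rise. This was the 21st largest rise among 22180 genes (limma adjusted p = 0.0146). Within same-numbered pairs the differences were 1.67, 1.77, 2.97 and 3.43, all upward but wider apart than the KCl values themselves. Of all genes, 11% were higher in 4 of 4 pairs.

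Without KCl replicate 3 the adjusted p of Ptgs2 was 0.0544 in the limma fit, with a log2 change of 2.37. With the replicate number as a block it was 0.0125, and 0.0728 when the pair numbered 3 was then left out. Without both arrays numbered 1 the log2 change was 2.72 (limma adjusted p = 0.0109).

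**Figure D1:**
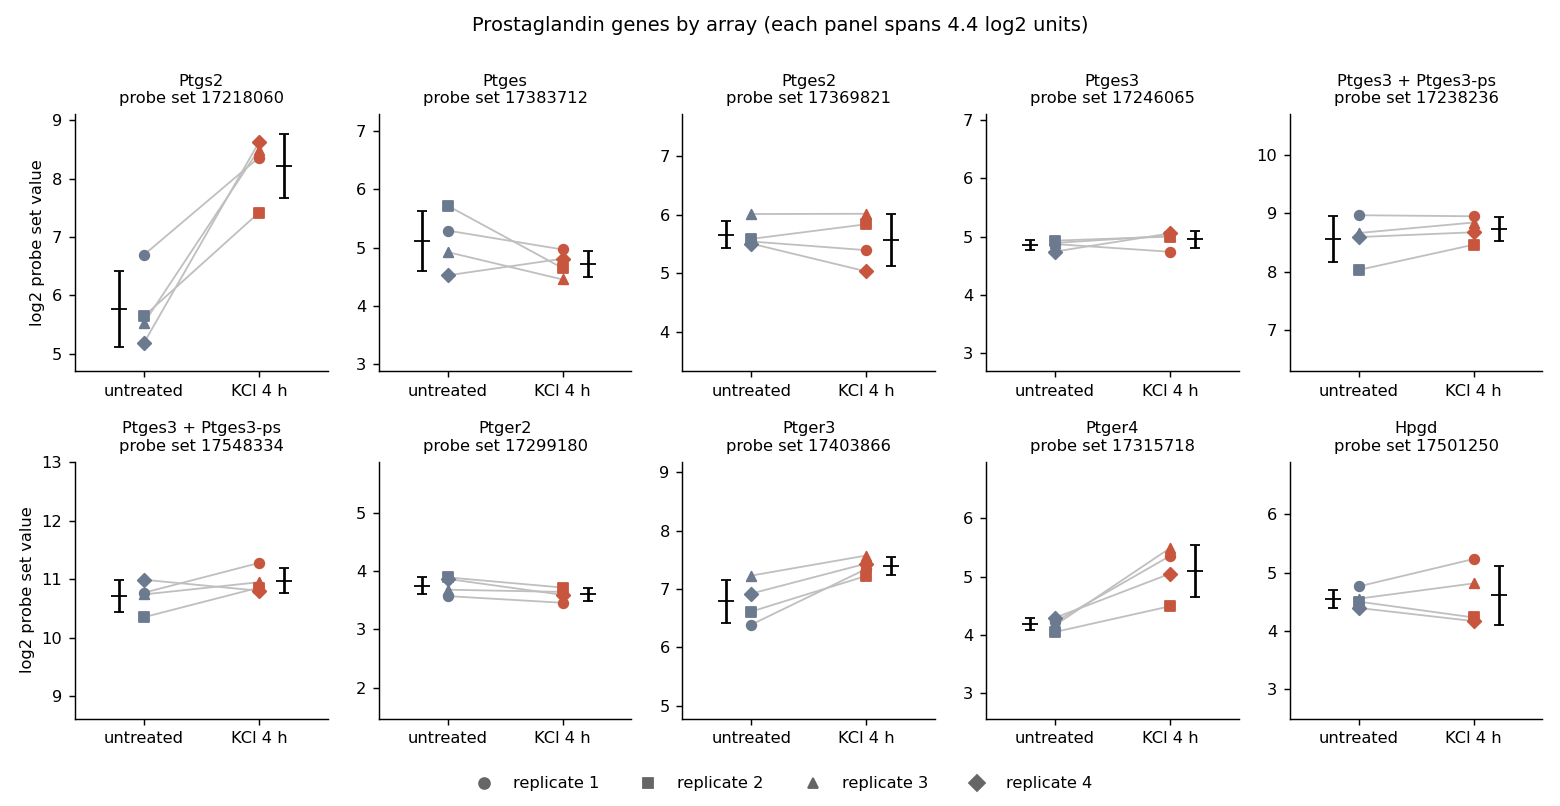
Log2 probe set values of the 8 measured genes and of 2 probe sets shared by Ptges3 and its pseudogene, by array; grey lines join same-numbered arrays, and black bars give the mean and SD of 4 arrays. Ptgs2 and Ptger4 are the genes whose KCl values all lie above their untreated values.

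Of the 8 measured genes, 1 rose and none fell at a limma adjusted p under 0.05, and 7 did not pass. Over all genes 1.34% rose and 1.02% fell. At an unadjusted p under 0.05 there were 3 of 8 (Ptgs2, Ptger4 and Ptger3), against 13% of all genes. The replicate numbers were taken to pair the arrays, and with them as a block 3 of the 8 rose and none fell, against 2.43% and 2.01% of all genes. The added genes were the receptors Ptger4 and Ptger3. The median log2 change was 0.08 over the 8 genes and -0.01 over all genes.

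**Figure D2:**
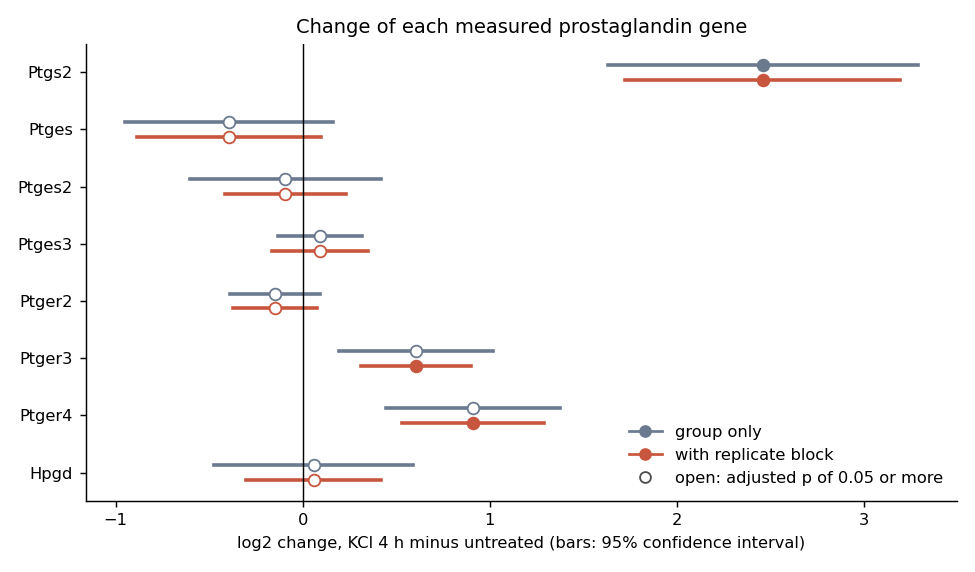
Log2 change of each measured gene with its 95% confidence interval, from limma with group alone (grey) and with the replicate number as a block (red); filled points have an adjusted p under 0.05. Ptgs2 at 2.46 is filled in both fits, Ptger4 at 0.91 and Ptger3 at 0.60 only with the block.

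None of the 3 measured receptors passed the test with group alone, and Ptger4 and Ptger3 passed with the replicate block and all 8 arrays. Ptger4 encodes EP4, which raises cAMP through Gs. Its probe set (17315718) read 4.22, 4.05, 4.17 and 4.29 in untreated arrays and 5.35, 4.49, 5.49 and 5.05 in KCl arrays. The groups did not overlap, as was so in the upward direction for 3.83% of all genes, and KCl replicate 2 stood closest to the untreated arrays. The means were 4.18 ± 0.103 and 5.09 ± 0.442 (SD, n = 4 each), a 1.88-fold difference. The log2 change was 0.91 (SE 0.203, interval 0.45 to 1.37) and the limma adjusted p 0.0626. With the replicate block the adjusted p was 0.0304.

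Every untreated Ptger4 value lay below the median probe set of its array. If those values lay near background, which could not be assessed here, the array summary may compress the difference and understate the fold. Without KCl replicate 2 the log2 change was 1.11 and the adjusted p 0.0107. In the other 7 fits with 1 array left out, Ptger4 did not pass (up to 0.158), and with the block it did not pass without the pair numbered 1 (0.0963), 3 (0.121) or 4 (0.0894). Without both arrays numbered 1 and without the block, the log2 change of Ptger4 was 0.84 (adjusted p = 0.158) and that of Ptger3, described next, 0.49 (0.279).

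Ptger3 encodes EP3, which lowers cAMP through Gi. Its probe set (17403866) read 6.39, 6.61, 7.23 and 6.92 in untreated arrays and 7.34, 7.22, 7.57 and 7.43 in KCl arrays. The groups overlapped only in that untreated replicate 3 (7.23) lay just above KCl replicate 2 (7.22), and 4 of 4 same-numbered pairs were higher after KCl, as were those of 11% of all genes. The pair differences were 0.95, 0.61, 0.34 and 0.51. The means were 6.79 ± 0.366 and 7.39 ± 0.147 (SD, n = 4 each), a 1.52-fold difference with a log2 change of 0.60 (SE 0.18, interval 0.19 to 1.02). Its limma adjusted p was 0.158 without and 0.048 with the replicate block. With the block and any single pair left out it ranged from 0.111 to 0.133.

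Ptger2 encodes EP2, the other receptor of the family coupled to Gs. Its probe set (17299180) read 3.57, 3.89, 3.68 and 3.86 in untreated arrays and 3.46, 3.72, 3.64 and 3.59 in KCl arrays. The groups overlapped, although 4 of 4 pairs were lower after KCl, as were those of 13.2% of all genes. The log2 change was -0.15 (SE 0.106, interval -0.39 to 0.09, limma adjusted p = 0.687). All 8 values lay below the median probe set, so a change in Ptger2 could be hidden at this level. Whether the 3 receptors differed from each other in their change was not tested.

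**Figure D3:**
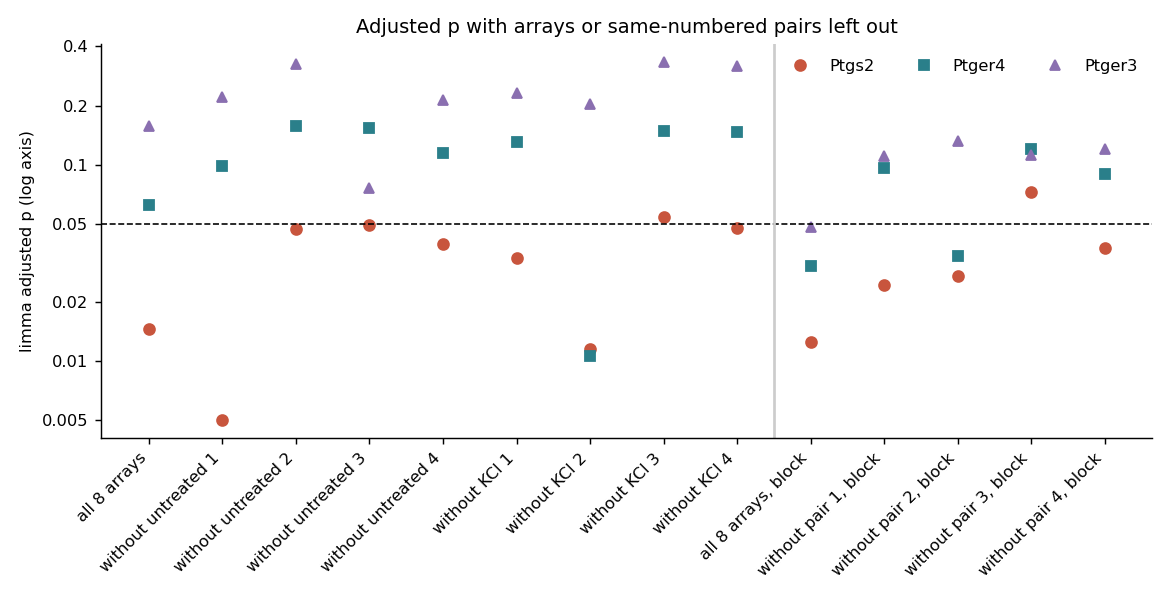
Limma adjusted p of Ptgs2, Ptger4 and Ptger3 (log axis) with all arrays, with each array left out, and with the replicate block with each same-numbered pair left out; the dashed line is 0.05. Ptgs2 lies above it only without KCl replicate 3 (0.0544) or, with the block, without the pair numbered 3 (0.0728).

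None of the 3 prostaglandin E synthases passed the test in either fit. Ptges encodes the microsomal enzyme known to be induced together with cyclooxygenase-2 in inflammation. Its probe set (17383712) read 5.29, 5.72, 4.92 and 4.52 in untreated arrays and 4.97, 4.65, 4.45 and 4.81 in KCl arrays. The groups overlapped and 3 of 4 pairs were lower, with a log2 change of -0.39 (SE 0.243, interval -0.95 to 0.16, limma adjusted p = 0.608). With 1 array left out it ran from -0.59 (without untreated replicate 4) to -0.19 (without untreated replicate 2), and it did not pass in any of those fits. The upper end of the interval for Ptges (0.16) lies below the lower end of the interval for Ptgs2 (1.63). The difference between these changes was not tested.

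Ptges2, a membrane-bound synthase made constitutively, read 5.54, 5.59, 6.01 and 5.51 in untreated arrays and 5.39, 5.84, 6.02 and 5.03 in KCl arrays (probe set 17369821). Pairs went both ways, and the log2 change was -0.09 (SE 0.223, interval -0.60 to 0.42, limma adjusted p = 0.952). Ptges3, the cytosolic synthase also known as the Hsp90 co-chaperone p23, had 1 probe set of its own (17246065). It read 4.87, 4.93, 4.89 and 4.74 in untreated arrays and 4.74, 5.00, 5.01 and 5.05 in KCl arrays, a log2 change of 0.09 (SE 0.0987, interval -0.13 to 0.32, limma adjusted p = 0.839).

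Another 2 probe sets were annotated to Ptges3 together with its pseudogene Ptges3-ps, so their signal cannot be given to either. Probe set 17548334 averaged 10.71 ± 0.266 without and 10.97 ± 0.213 with KCl (SD, n = 4 each). Probe set 17238236 averaged 8.56 ± 0.391 and 8.73 ± 0.213. Their log2 changes were 0.26 (interval -0.10 to 0.62) and 0.17 (interval -0.29 to 0.62), neither past the threshold over all 34472 probe sets (limma adjusted p = 0.667 and 0.894). Probe set 17246065, annotated to Ptges3 alone, averaged only 4.86 without and 4.95 with KCl. Whether it follows the main Ptges3 transcript was not tested.

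Hpgd encodes the dehydrogenase that starts the breakdown of prostaglandin E2. Its probe set (17501250) read 4.76, 4.50, 4.55 and 4.39 in untreated arrays and 5.23, 4.23, 4.81 and 4.17 in KCl arrays. The KCl values spread on both sides of the untreated ones: replicates 1 and 3 were higher than their same-numbered partners and replicates 2 and 4 lower. The SD was 0.155 in untreated and 0.505 in KCl arrays, and the log2 change 0.06 (SE 0.233, interval -0.47 to 0.59, limma adjusted p = 0.975).

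The genes whose levels followed those of Ptgs2 most closely over the 8 arrays were Tulp4 (Pearson r = 0.997), Fem1c (0.994), the stress-response factor Atf3 (0.993), the kinase-like gene Stk40 (0.993) and Zc3h12c, a CCCH zinc finger gene (0.986). These correlations describe 8 points that share the difference between the groups, and the genes were chosen for them. After the group means were removed, r was 0.922 to 0.982, which the choice also favours. Like Ptgs2, each of the 5 had its highest untreated value in replicate 1 and its lowest KCl value in replicate 2. Since Ptgs2 separates the groups, the choice fixes their direction, and their log2 differences of 0.83 (Fem1c) to 3.13 (Atf3) are given as a description. Among the receptors, r with Ptgs2 was 0.892 for Ptger4, 0.639 for Ptger3 and -0.73 for Ptger2 over the 8 arrays, and 0.522, -0.33 and -0.71 in that order within groups.

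Arachidonate reaches the cyclooxygenases from phospholipases and from endocannabinoid hydrolysis. Of 22 listed genes of these routes, 21 were measured: none rose, 1 fell and 20 did not pass, against 1.34% of all genes rising and 1.02% falling. Before adjustment, 3 of the 21 had a limma p under 0.05, as had 13% of all genes. Their median log2 change was -0.02. Dagla, which makes the endocannabinoid 2-arachidonoylglycerol, was lower in 4 of 4 same-numbered pairs, as were 13.2% of all genes. It fell from 7.69 ± 0.158 to 7.01 ± 0.152 (SD, n = 4 each), to 0.623 of its untreated level (limma adjusted p = 0.0231). That call was lost without untreated replicate 3 or 4 or KCl replicate 2 or 3 (adjusted p = 0.0608 to 0.0721) without both arrays numbered 1 (0.0644), with trended and robust eBayes (0.0789), and with the block and any pair left out (0.0505 to 0.105). The next smallest p-values were those of the secreted phospholipase Pla2g12a (log2 change -0.56, adjusted p = 0.15) and the lysosomal Pla2g15 (-0.51, adjusted p = 0.354). Pla2g4a, the cytosolic phospholipase that releases arachidonate in response to calcium and the neighbour of Ptgs2 on chromosome 1, stood at 4.11 ± 0.192 and 4.12 ± 0.0832, a log2 change of 0.01 (interval -0.25 to 0.26). Both of its means lay below the median probe set, so a change may be hidden.

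None of the 7 measured synthases of other prostanoids passed. Hpgds, a prostaglandin D synthase, stood at a log2 change of 0.42 (limma adjusted p = 0.386), the reductase genes Akr1c18 and Cbr1 at -0.17 each (0.823 and 0.843). Nor did any of the 5 genes listed as other prostanoid receptors, 1 of which (Ptgfrn) encodes a regulator of the prostaglandin F2α receptor. In that list Ptgfr, the receptor for prostaglandin F2α, stood at 0.17 (0.703), the thromboxane receptor Tbxa2r at 0.19 (0.797) and Ptgdr, for prostaglandin D2, at 0.10 (0.878). Of 7 genes of transport and breakdown, Slco3a1, an organic anion transporter, was higher in 4 of 4 pairs, as were 11% of all genes. It stood at a log2 change of 0.40 but did not pass (0.413). Cbr3 and Cyp4f18 stood at -0.14 and -0.06. None of 12 genes of the lipoxygenase branch passed, with Alox5 at -0.30, Lta4h at 0.17 and Alox12b at 0.13. In these 4 lists no gene reached an unadjusted limma p under 0.05, against 13% of all genes. Many of the listed genes had both group means below the median probe set, among them Ptgdr, Ptgfr, Cbr3, Cyp4f18, Alox5 and Alox12b. A change in those genes may be hidden, so the contrast with all genes does not show that these branches were unchanged. Others, such as Slco3a1, Cbr1 and Lta4h, lay above the median.

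Transcription factors known to act at the Ptgs2 promoter were the list with several changed genes. Of 16 measured, 4 rose, none fell and 12 did not pass, against 1.34% of all genes rising and 1.02% falling. Before adjustment, 7 of the 16 had a limma p under 0.05, against 13% of all genes. The median log2 change was 0.36. The 4 are AP-1 subunits: Fosb (log2 change 5.43), Fos (4.19), Junb (2.87) and Fosl2 (1.73), with limma adjusted p of 0.000166 to 0.00169. With the replicate block their partner Jun also rose (1.21, adjusted p = 0.0243, but 0.0586 without the block). Jund, another AP-1 gene, stood at 0.80 and passed in neither fit (limma adjusted p = 0.0981, and 0.0522 with the block). Cebpb and Cebpd, C/EBP family genes, stood at 0.19 (adjusted p = 0.522) and -0.01 (0.994). Both lay below the median probe set (Cebpb 3.91 untreated and 4.10 KCl, Cebpd 4.20 and 4.19), so a change may be hidden. The NF-κB subunit Rela stood at 0.39 (0.455), the cAMP-responsive factor Crem at 0.50 (0.25) and Creb1 at -0.15 (0.905).

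Ptgs2os, a transcript next to the Ptgs2 start, averaged 4.17 ± 0.174 without and 4.05 ± 0.0733 with KCl (SD, n = 4 each). Its log2 change of -0.12 (interval -0.36 to 0.12) did not pass (limma adjusted p = 0.792). Both groups lay below the median probe set, so that a change from a low level may be hidden.

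**Figure D4:**
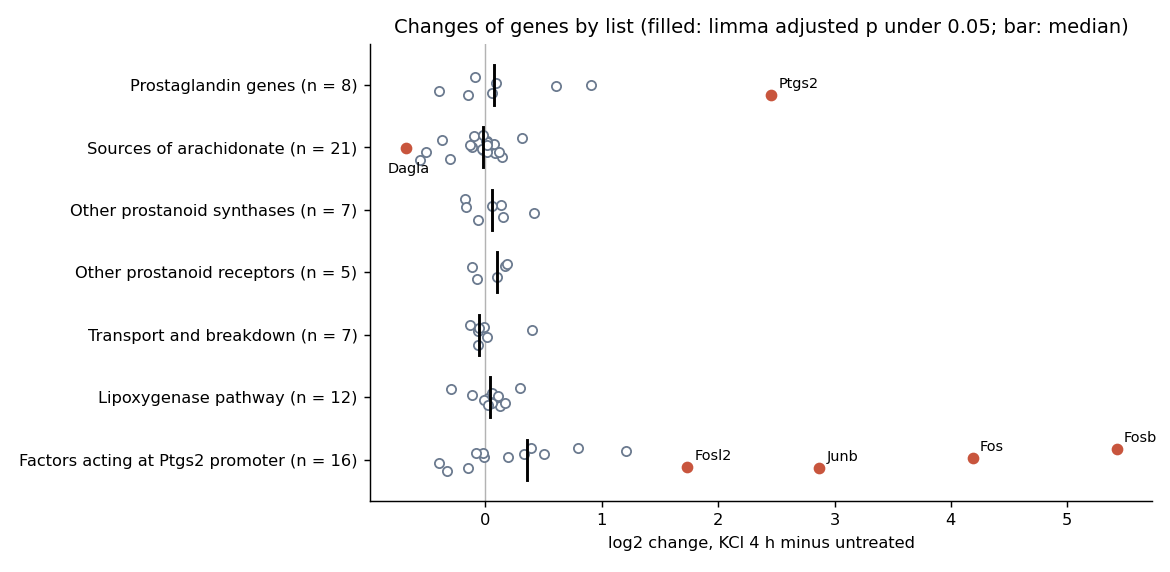
Log2 change after KCl of each measured gene of the prostaglandin group and of 6 related lists; filled points have a limma adjusted p under 0.05 and black bars are list medians. Ptgs2 (2.46) and 4 AP-1 genes are the filled points to the right and Dagla (-0.68) the one to the left.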

How the data were processed

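The authors deposited log2 probe set values; RMA and Partek are named in the submitters' processing notes, without versions or settings, and the build behind the annotation is not stated in the sources. The scanner files were not analysed here, so signal over background could not be assessed. Gene names came from the platform annotation (23521 of 34472 with 1 symbol), and for each gene the probe set of highest mean was kept, giving 22180 genes. 1 listed symbol was updated through RefSeq. The 8 arrays all differed.

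KCl and untreated arrays were compared with limma 3.58.1 (R 4.3.3; lmFit, eBayes, group alone, two-sided), with Benjamini-Hochberg adjustment over all genes and a threshold of 0.05; SEs are moderated. Deviations from group means correlated at 0.64, 0.23, 0.41 and 0.37 across genes for same-numbered arrays (highest other value 0.30), so the numbers were taken to pair them and a fit with the number as a block is given beside the first. No label says that a number marks a common litter or day, and p-values measure the spread between these arrays.

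Members, lists, tests and alternatives were chosen with earlier results of these data known. Named genes are the members, per list those past the threshold and up to 3 with the smallest p, and the 5 genes nearest to Ptgs2 by correlation. Pla2g4a, Cebpb, Cebpd, Rela, Crem, Creb1, Jun, Jund, Slc1a2, Gad1, Gad2, Kdr, Ptgfrn, Gfap, S100b, Gjb6 and Cx3cr1 were named after their values were seen. The fit was tested on simulated data over 22180 genes. Without the block it recovered 69.1% of changes of 1 and 93% of changes of 2 on the log2 scale. With the block these were 48.2% and 85.8%. The simulated arrays were drawn independently, with no effect shared by same-numbered arrays, so the figures with the block do not carry over to these data.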

Additional observations from a re-analysis of the deposited data

Results flagged for a closer look

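One value stood far from the others of its group: Ptges2 in untreated replicate 3, at 6.01 against 5.51 to 5.59 in the other 3 arrays. Its gap to the nearest array was 0.84 of the group's range, above Dixon's 95% critical value for 4 arrays. In all, 20 groups of 4 values were examined, and chance flags about 1 in 20. KCl replicate 3 had a like value, 6.02.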

How the results depend on the processing

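Ptgs2 was higher after KCl under all alternatives run (log2 change 2.13 to 2.77), and lost its call only as given above. The members that rose numbered 3 with the replicate block, 2 with trended and robust eBayes (Ptgs2 and Ptger4, adjusted p = 0.0403), 0 to 2 with 1 array left out and 0 to 2 with the block and a pair left out. Over all genes, 297 rose and 227 fell. With the block these were 539 and 446. With 1 array left out they were 118 to 254 and 68 to 247, lowest without KCl replicate 3. With the block and a pair left out, a setting added after the data were seen, they were 119 to 306 and 27 to 237, lowest without the pair numbered 3 (81 fell without the pair numbered 4). With trended and robust eBayes 150 fell. Without both arrays numbered 1 the call of Dagla was lost, which left 0 of 21 genes of the arachidonate list. Signs turned for changes near 0: Hpgd ran from -0.15 to 0.21 with 1 array left out, stood at -0.078 without both arrays numbered 1 and, with the block, at -0.078 and -0.0092 without the pairs numbered 1 and 3. Ptges2 ran from -0.24 to 0.087 and, with the block, stood at 0.035 without the pair numbered 4. The cause was not tested. Ptger2, Ptger4 and Hpgd lie below the median gene and have no value among brighter genes. The planned test of Ptgs2 against Ptgs1 was not run, because Ptgs1 had no named probe set.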

Other observations

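In several marker lists, named after their values were seen, arrays of the same number had similar levels. The mean of 10 neuron markers was 9.82, 10.18, 10.46 and 10.29 in untreated replicates 1 to 4. In KCl replicates 1 to 4 it was 9.82, 10.07, 10.44 and 10.24. The mean of 8 endothelial markers was 4.31, 4.41, 4.06 and 4.09 in untreated and 4.36, 4.47, 4.12 and 4.16 in KCl arrays. Means of the 8 astrocyte markers fell from replicate 1 to 4 in both groups. The mean of 6 choroid plexus markers was 6.10, 5.75, 4.93 and 5.45 in untreated replicates 1 to 4 and 6.22, 5.76, 5.06 and 5.56 in KCl replicates 1 to 4. The mean of 8 fibroblast and meningeal markers was 4.93, 4.89, 4.29 and 4.30 in untreated and 4.88, 4.77, 4.36 and 4.42 in KCl arrays. The 10 microglia markers did not show this, with means of 4.38, 4.34, 4.38 and 4.38 in untreated and 4.21, 4.29, 4.51 and 4.36 in KCl arrays. Nor did the 8 oligodendrocyte lineage markers, at 4.98, 4.98, 4.91 and 4.87 in untreated and 4.86, 4.96, 5.08 and 4.93 in KCl arrays. Whether the cells of any of these lists had a part in the spread of Ptgs2 between replicates was not tested.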
